A study of Mus musculus with 33 samples.

Results

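10 genes that mark astrocytes or reactive glia were followed through 35 days of culture of mouse retinal progenitor cells: Gfap, S100b, Aldh1l1, Serpina3n, Lcn2, Cd44, Osmr, Steap4, C3 and C4b. They were chosen by name for their known link to these glial states, with earlier results of these data already known. Each name matched 1 gene, so that 10 of the 47729 genes in the count tables are described. All 10 were among the 18150 genes that had enough counts to be tested, but most reached that level only through the later days and were at or near 0 counts on day 0.

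The cells came from C57BL/6J retina at embryonic day 14 and are labelled as retinal progenitor cells; no other genotype was used. The 33 libraries of total RNA form 11 groups of 3. On day 0 cells were untreated, primed towards cones with COCO protein, which blocks several secreted growth factors, among them BMPs, or primed towards rods with taurine and retinoic acid, and on days 5, 12, 21 and 35 they had been through cone induction with COCO protein or rod induction with taurine and retinoic acid. The labels give no growth protocol and do not say whether replicates were separate cultures or animals, so p-values here measure only the spread between these libraries, which may be technical.

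Astrocytes are the star-shaped glia of the central nervous system, and those of the mouse retina normally enter it from the optic nerve along the inner surface. Muller glia are the radial glia that the retina's own progenitors produce, and both kinds switch on Gfap when the tissue is injured or stressed. Such reactive glia are known to respond to cytokines of the interleukin-6 family through OSMR and the shared receptor chain IL6ST to STAT3, and to interleukin-1 and tumour necrosis factor through NF-kappa-B and C/EBP factors, and to release acute-phase and complement proteins.

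The members lie on several chromosomes, and positions are given on mouse build GRCm38. The markers of astrocyte identity are Gfap, an intermediate filament protein (chr11:102887336-102900912), S100b, a calcium-binding protein (chr10:76253853-76261159), and Aldh1l1, an enzyme of folate metabolism (chr6:90486427-90600203). The secreted or membrane proteins of the reactive state are Serpina3n, a serine protease inhibitor (chr12:104406729-104414329), Lcn2, the iron-carrier-binding lipocalin 2 (chr2:32384633-32388252), and Steap4, a metal reductase (chr5:7960457-7982213). The receptors are Cd44, which binds hyaluronan and osteopontin (chr2:102811141-102901665), and Osmr, which binds oncostatin M (chr15:6813577-6874969). C3 (chr17:57203970-57228136) and C4b (chr17:34728380-34743882) are central components of the complement cascade. All counts are over whole annotated genes, exons of every transcript together.

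Promoter sequence was available from RefSeq (GRCm38.p6) for 9 of the 10 members, and C4b had no entry. The 250 bases before each start were searched on both strands for the STAT motif TTCNNNGAA, the C/EBP motif TTGCNNAA and the NF-kappa-B consensus, since these factors carry the cytokine signals named above and the members rose together. Of 27025 mouse promoters of this length, 7.18% held the STAT motif, 9.55% the C/EBP motif and 3.75% the NF-kappa-B consensus. Steap4 held all 3, with the NF-kappa-B consensus at -250 to -241 and -226 to -217, the STAT motif at -116 to -108 and the C/EBP motif at -87 to -80 from the start. The C/EBP motif was also found in Lcn2 at -216 to -209, in C3 at -45 to -38 and in Aldh1l1 at -234 to -227. None of the 3 was found in these windows of Gfap, S100b, Serpina3n, Cd44 or Osmr, which says only that these letters are not there. No matches overlapped each other. The Steap4, Lcn2 and C3 sequences are printed because they carry matches next to strongly rising genes, and Gfap as the best-known marker, with no match; capitals mark the matches, and each runs 5′ to 3′ on the gene's strand. They lie at chr5:7960222-7960471 (plus strand), chr2:32387740-32387989 (minus strand), chr17:57228137-57228386 (minus strand) and chr11:102897201-102897450 (minus strand). A match is a description of the letters and not a measured binding site.
Steap4: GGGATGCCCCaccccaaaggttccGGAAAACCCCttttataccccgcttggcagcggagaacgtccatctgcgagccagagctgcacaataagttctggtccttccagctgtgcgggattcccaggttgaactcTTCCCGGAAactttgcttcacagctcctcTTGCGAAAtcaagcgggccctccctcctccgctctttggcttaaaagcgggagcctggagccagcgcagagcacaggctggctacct
Lcn2: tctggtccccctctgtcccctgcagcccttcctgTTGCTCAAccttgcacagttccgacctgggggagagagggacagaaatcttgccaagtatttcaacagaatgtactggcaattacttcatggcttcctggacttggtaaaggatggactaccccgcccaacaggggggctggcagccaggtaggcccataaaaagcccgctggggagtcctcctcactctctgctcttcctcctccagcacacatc
C3: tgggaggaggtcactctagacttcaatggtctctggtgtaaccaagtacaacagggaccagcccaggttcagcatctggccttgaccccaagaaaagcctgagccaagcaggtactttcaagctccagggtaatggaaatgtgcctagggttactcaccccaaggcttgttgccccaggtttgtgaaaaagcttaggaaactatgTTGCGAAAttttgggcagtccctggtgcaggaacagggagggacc
Gfap: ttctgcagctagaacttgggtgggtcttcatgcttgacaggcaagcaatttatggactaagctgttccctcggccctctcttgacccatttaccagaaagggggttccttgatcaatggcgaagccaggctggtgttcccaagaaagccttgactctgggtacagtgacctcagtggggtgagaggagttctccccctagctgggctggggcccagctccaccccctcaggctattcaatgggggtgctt

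Depth ranged from 7511837 to 19166442 counts in genes per library, with a median of 12985662. A count of 0 allows up to 3 counts, which is 0.174 to 0.407 CPM (counts scaled to a common library size by the TMM factors of edgeR) across libraries, for counting error only. The summed level of 10 retinal progenitor markers was 1495 to 1801 CPM in the untreated libraries, so the markers of the labelled cell type were present, and 1042 to 1116 CPM in cone and 1371 to 1661 CPM in rod libraries of day 35. Markers of neutrophils, which also make Lcn2, summed to at most 0.170 CPM in any library of day 35.

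On day 0 the glial genes were silent or nearly so under all 3 conditions. Serpina3n, Steap4 and C4b had 0 counts in all 9 libraries of that day. Gfap had 0 counts in the 3 untreated libraries, 2, 1 and 0 in the cone primed and 1, 0 and 2 in the rod primed libraries. Cd44 was the exception, with 6 to 24 counts in every library of day 0, which is 0.667 to 2.15 CPM. None of the 10 differed between rod primed and untreated cells, a comparison in which 10.3% of all tested genes did by the quasi-likelihood test of edgeR at a Benjamini-Hochberg adjusted p under 0.05. No member differed between cone primed and untreated cells, where 0% of genes did, or between cone primed and rod primed cells, where 7.27% of genes did. In all 3 of these comparisons 0 members had an unadjusted p under 0.05 and DESeq2 called 0. At these depths most members could not have shown a difference on day 0.

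All 10 genes rose in both cultures and were called higher by day 12. The number of members called higher than in the primed cells of the same condition grew from 5 of 10 (Gfap, Aldh1l1, Serpina3n, Cd44, Osmr) in cone culture and 4 of 10 (S100b, Aldh1l1, Cd44, Osmr) in rod culture on day 5 to 10 of 10 in both on days 12, 21 and 35. Over all genes tested the share called higher was 12.2% on day 5, 26.7% on day 12, 29.4% on day 21 and 31.1% on day 35 in cone culture, and 8.76%, 24.2%, 27.2% and 29.4% in rod culture. Because the members pass the filter on low counts only through the days when they are high, these counts describe the rise and lend it no further support. With members at 0 set to the floor of 3 counts over the group, the median fold or lower bound of the members over primed cells on day 35 was 263 in cone culture and 447 in rod culture, while the median log2 fold change of all genes was 0.03 and 0.04. Several calls of day 5 were lost when 1 library was left out. In edgeR, S100b in rod culture lost its call (adjusted p of 0.0499 with all libraries) without any one of the 6 libraries compared, and Osmr in rod culture without rod primed replicate 2 or 3 or rod day 5 replicate 2. In cone culture Aldh1l1 lost it without cone primed replicate 2 or 3 or cone day 5 replicate 2, and Serpina3n without any cone primed library or cone day 5 replicate 1. On day 12 C4b lost it without cone primed replicate 2, rod primed replicate 2 or 3 or rod day 12 replicate 2. With all libraries of 1 replicate number left out of every group, calls of Aldh1l1 (any number) and Cd44 (number 1) were also lost in rod culture on day 5, and on day 12 those of Aldh1l1 in cone (number 3) and of Steap4 (number 1) and C3 (number 2) in rod culture. The comparisons of one condition share their primed libraries. These libraries are bulk RNA, so more cells of a glial type and more RNA per cell cannot be told apart.

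**Figure D1:**
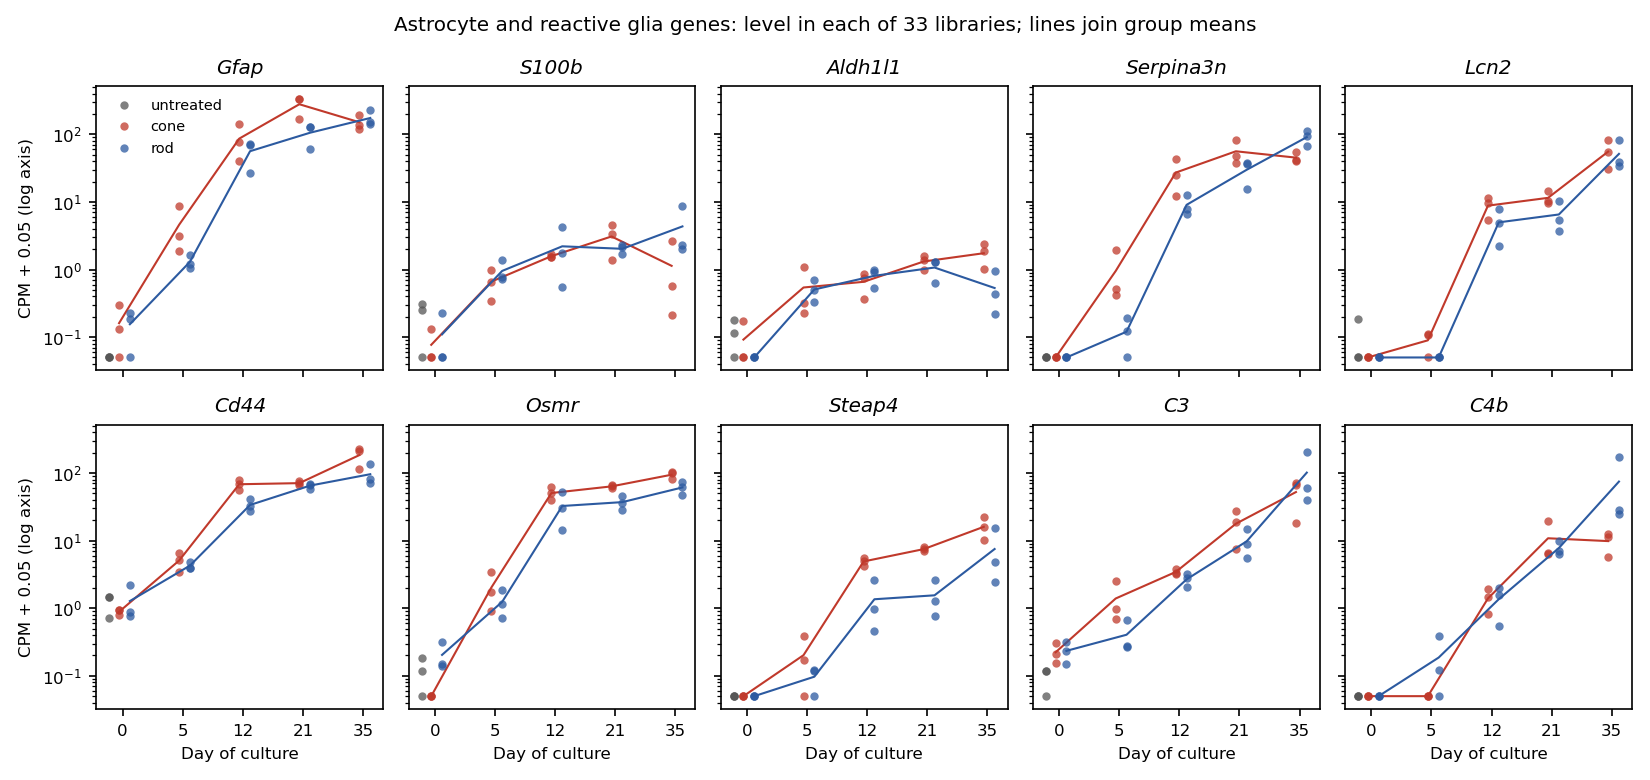
Level of each of the 10 genes in every library (CPM plus 0.05 on a log axis) against day of culture, with untreated cells in grey, cone culture in red and rod culture in blue, primed cells standing at day 0, and lines joining the means of 3 libraries. All genes except Cd44 are near the bottom of the axis on day 0, and all are higher by day 12. S100b and Aldh1l1 stay below 10 CPM, and the rod libraries of day 35 stand above the cone libraries for Serpina3n and C4b.

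Gfap, the classical marker of astrocytes and of stressed Muller glia, climbed furthest among the identity markers. Its levels in cone culture were 8.69, 3.10 and 1.86 CPM on day 5, 141, 77.0 and 40.4 on day 12, 333, 332 and 169 on day 21, and 195, 119 and 138 on day 35. In rod culture they were 1.01, 1.14 and 1.60 CPM on day 5, 69.8, 27.2 and 71.5 on day 12, 129, 61.2 and 127 on day 21, and 232, 150 and 141 on day 35. The cone libraries lay above all rod libraries on days 5 and 21, and the 2 cultures overlapped on days 12 and 35. On day 35 the level over primed cells was 1496-fold higher in cone culture (95% counting interval 512 to 7257) and 1617-fold higher in rod culture (553 to 7844), each resting on 3 counts in the primed libraries. The order of group means ran from cone day 21 (278 CPM ± 94.7, SD, n = 3) through rod day 35 (174, from 141 to 232 CPM) and cone day 35 (151 ± 39.8) to rod day 12 (56.2 ± 25.1), and each neighbour in that stretch overlapped the next; the day 5 groups stood apart below them.

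S100b and Aldh1l1, the other identity markers, stayed low. S100b reached 0.512, 2.58 and 0.161 CPM in cone and 8.67, 1.94 and 2.26 CPM in rod libraries of day 35, so the ranges overlapped and 1 rod library was well above the rest. Without cone day 35 replicate 2, its adjusted p against cone primed cells in edgeR went from 0.00500 to 0.110. S100b lies across Dip2a, a gene on the opposite strand, and reads of the 2 cannot be told apart where the counting ignored strand, a setting not given in the sources used here. Gfap overlaps Gm26668 on the opposite strand. Aldh1l1 overlaps Gm45901 and Gm44236 on its own strand and Gm15756 on the opposite strand, and reads shared with them could have been dropped in counting. Aldh1l1 stood at 2.30, 1.80 and 0.968 CPM in cone and 0.170, 0.889 and 0.387 CPM in rod libraries of day 35, which did not overlap. That difference was 1.79 ± 0.62 (SE) on the log2 scale with an adjusted p of 0.0582 in edgeR, and it missed the threshold.

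Compared per length of exon on day 35, Gfap was at or near the upper end of the members and Aldh1l1 had the lowest mean of them. The length used was that of all annotated exons of a gene together, and the order could differ with another choice of length. Gfap stood at 35.7 ± 9.44 CPM per kb (SD, n = 3) in cone and 41.3 ± 11.8 in rod culture, S100b at 0.730 ± 0.879 and 2.89 ± 2.56, and Aldh1l1 at 0.375 ± 0.149 and 0.107 ± 0.0817. Serpina3n, at 44.0 ± 10.3 CPM per kb, was level with Gfap in rod culture, and Cd44, at 27.1 ± 8.71, came after Gfap in cone culture. The libraries of these pairs of genes overlapped in level. In cone culture those of Aldh1l1 and S100b overlapped too.

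**Figure D2:**
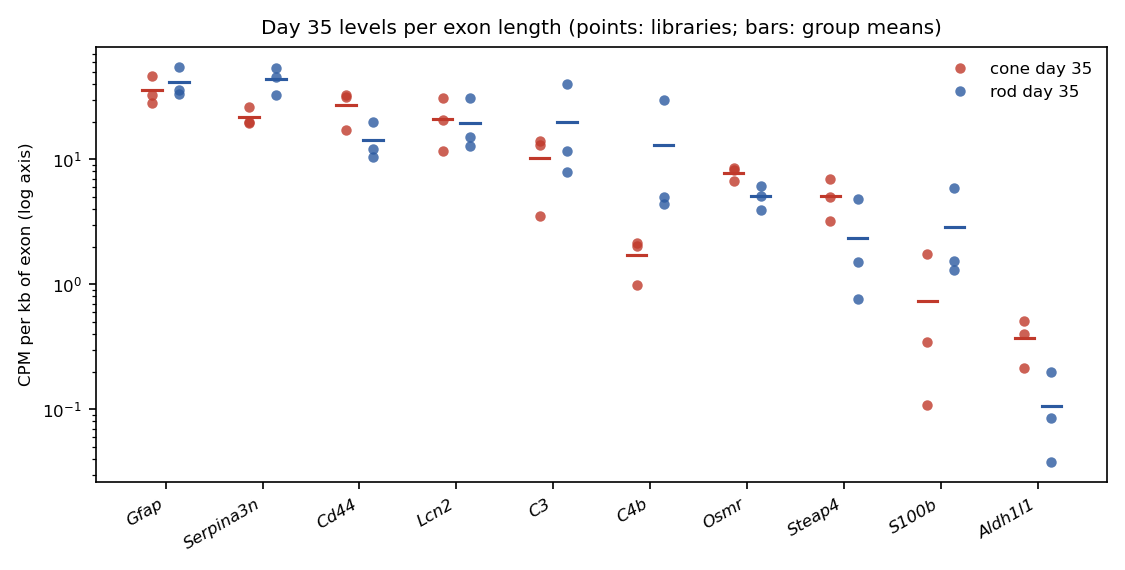
Level of each gene on day 35 per kilobase of exon (log axis), with 3 cone libraries in red, 3 rod libraries in blue and bars at the group means. Gfap has the highest cone mean and Serpina3n the highest rod mean, Aldh1l1 has the lowest mean in both cultures, and C4b has 1 rod library far above the other 2.

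Serpina3n, a target of the acute-phase response and a broad marker of reactive astrocytes, was the 1 member called for a cone to rod difference that changed with day. It stood at 43.6, 12.3 and 25.4 CPM in cone and 12.6, 7.71 and 6.63 CPM in rod libraries of day 12. On day 35 the cone libraries were at 40.0, 54.2 and 41.1 CPM and the rod libraries at 110, 94.2 and 67.9 CPM. The cone libraries were thus mostly higher on day 12, with 1 overlap, and all lower on day 35. The cone over rod log2 fold change was 3.30 ± 1.21 (SE) on day 5, 1.58 ± 0.45 on day 12, 0.91 ± 0.43 on day 21 and -1.01 ± 0.42 on day 35, with adjusted p-values in edgeR of 0.0971, 0.0279, 0.209 and 0.135. The day 5 value rested on 42 counts in cone and 3 in rod libraries (95% counting interval of the fold 3.43 to 54.2). The change with day was taken against day 0, where Serpina3n had 0 counts in all primed libraries. The F test of whether the difference changed with day gave an adjusted p of 0.0326 in edgeR, and 9.22% of all genes passed it; Serpina3n was the 1 member that did. Leaving out cone day 35 replicate 3 moved it to 0.0803, and leaving out cone day 35 replicate 1, rod day 35 replicate 1 or 2, rod day 5 replicate 1 or 2 or rod day 12 replicate 3 also ended the call. Without cone or rod day 35 replicate 2, Cd44 passed this test, and without the latter C4b did too. On day 12 the call was lost without cone replicate 1 (adjusted p of 0.190 in edgeR), cone replicate 3, rod replicate 2 or rod replicate 3, and with only the 6 libraries of that day in the fit. Serpina3n is one of a cluster of close paralogs, and reads shared among them could have been split or dropped in counting.

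Lcn2, a secreted lipocalin strongly induced in inflamed glia, was still at or under the floor on day 5. It had 0, 1 and 1 counts in cone and 0 counts in all 3 rod libraries of day 5, and then 9.45, 5.44 and 11.4 CPM in cone and 7.71, 2.18 and 4.90 CPM in rod libraries of day 12. Levels rose again after day 21, to 30.6, 81.1 and 54.3 CPM in cone and 81.2, 39.1 and 33.4 CPM in rod libraries of day 35, with no overlap between days 21 and 35 in either culture. Against primed cells, which had 0 counts, Lcn2 was at least 550-fold higher in cone and at least 468-fold higher in rod culture on day 35. The 2 cultures overlapped throughout, and on day 35 the cone over rod log2 fold change was 0.11 ± 0.42 (SE), which leaves room for a difference in either direction.

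Steap4, a metalloreductase of inflamed tissue, was higher in cone culture on day 21. Its levels that day were 7.87, 6.93 and 7.48 CPM in cone and 1.24, 2.55 and 0.717 CPM in rod libraries, with no overlap. The log2 fold change was 2.31 ± 0.64 (SE) with an adjusted p of 0.0258 in edgeR. The call was lost without rod day 21 replicate 3 (adjusted p of 0.124), rod day 21 replicate 1 or cone day 21 replicate 1 or 3. On day 12 the cone libraries (4.90, 4.12 and 5.57 CPM) also lay above the rod libraries (2.57, 0.409 and 0.937 CPM), with an adjusted p of 0.0685 in edgeR. By day 35 the ranges overlapped, at 10.2, 15.7 and 22.0 CPM in cone and 4.76, 15.2 and 2.39 CPM in rod culture.

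Both receptors were already higher than in primed cells on day 5. Cd44, the receptor for hyaluronan that is also carried by mesenchymal cells and leukocytes, rose to 68.9, 56.5 and 78.7 CPM in cone and 41.1, 26.9 and 32.8 CPM in rod libraries of day 12. The cone libraries were higher than every rod library that day, by 1.02 ± 0.25 (SE) on the log2 scale with an adjusted p of 0.00956 in edgeR. That call was lost without cone day 12 replicate 3 (adjusted p of 0.0622) or rod day 12 replicate 2, and with only these 6 libraries in the fit. On day 21 the 2 cultures overlapped (cone over rod log2 fold change 0.12 ± 0.25).

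On day 35 Cd44 stood at 222, 116 and 213 CPM in cone and 70.7, 135 and 81.9 CPM in rod libraries, and cone replicate 2 fell below rod replicate 2. The log2 fold change was 0.94 ± 0.25 (SE) with an adjusted p of 0.0124 in edgeR, and it was lost without rod day 35 replicate 1 (adjusted p of 0.0892) or 3, without cone day 35 replicate 1 or 3, or with only these 6 libraries in the fit. Markers of mesenchyme moved with it: their 8 genes, all detected in both groups, summed to 3253, 604 and 4278 CPM in the cone and 327, 856 and 326 CPM in the rod libraries, in the order of replicates. Cone replicate 2, the lowest cone library in this sum, was also the lowest for Cd44, and rod replicate 2, the highest rod library in this sum, was also the highest for Cd44. The part of mesenchymal RNA in the Cd44 difference was not tested.

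Osmr, the oncostatin M receptor chain, reached 50.5, 39.2 and 61.7 CPM in cone and 52.3, 14.5 and 30.5 CPM in rod libraries by day 12, and 102, 80.7 and 99.3 CPM in cone and 61.5, 74.1 and 47.6 CPM in rod libraries by day 35. The cone libraries of day 35 lay above all rod libraries and above those of every other group, with a cone over rod log2 fold change of 0.63 ± 0.32 (SE) and an adjusted p of 0.235 in edgeR, which did not pass. Against primed cells on day 35 it was at least 938-fold higher in cone culture, and 426-fold higher in rod culture over 4 counts in the primed libraries.

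C3 and C4b, the complement components, were still low on day 12. C3 stood at 3.73, 3.18 and 3.25 CPM in cone and 3.14, 1.98 and 2.74 CPM in rod libraries on day 12, and 18.2, 71.7 and 66.7 CPM in cone and 204, 59.3 and 40.3 CPM in rod libraries on day 35. The 2 cultures overlapped on day 35 (cone over rod log2 fold change -0.95 ± 0.49, adjusted p of 0.230 in edgeR). C4b had 0 counts in all primed and all cone day 5 libraries, 1.87, 0.777 and 1.39 CPM in cone and 0.500, 1.91 and 1.51 CPM in rod libraries on day 12, and 6.43, 19.5 and 6.37 CPM and 6.25, 7.03 and 9.85 CPM on day 21.

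C4b then differed between the cultures on day 35, and in the direction opposite to Cd44. The rod libraries were at 171, 24.8 and 28.1 CPM and the cone libraries at 5.63, 11.4 and 12.3 CPM, so every rod library was above every cone library and rod replicate 1 was far above the rest. The cone over rod log2 fold change was -2.93 ± 0.65 (SE) with an adjusted p of 0.00524 in edgeR. Without rod day 35 replicate 1 the adjusted p was 0.101, and the call was also lost with only these 6 libraries in the fit. That library was also the highest of the 3 rod libraries of day 35 for Gfap, S100b, Serpina3n, Lcn2 and C3. It was the lowest of the 3 for Aldh1l1 and Cd44, and lay between the others for Osmr and Steap4. Its microglia markers, at 42.0 CPM summed over 11 genes, were between those of the other rod libraries (42.5 and 40.7 CPM), and its mesenchyme markers were at 327 CPM. The part of either cell class in the C4b difference was not tested. The C4b count could hold reads of its close copy C4a, which had its own row in the tables.

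Across the 4 days of induction the number of members that differed between cone and rod culture was small. It was 0 of 10 on day 5, when 9.28% of all genes differed, 2 of 10 on day 12 (Serpina3n and Cd44) against 10.1% of genes, 2 of 10 on day 21 (Gfap and Steap4) against 9% of genes, and 2 of 10 on day 35 (Cd44 and C4b) against 12.3% of genes. On day 5, 2 members (Gfap and Serpina3n) had an unadjusted p under 0.05 in edgeR, and DESeq2 called 2. Gfap on day 21 had a log2 fold change of 1.40 ± 0.43 (SE) and an adjusted p of 0.0425 in edgeR, which became 0.189 without rod day 21 replicate 2 and was also lost without cone day 21 replicate 1 or 2 or rod day 21 replicate 1 or 3. DESeq2 did not call Gfap on that day. Leaving out 1 library also added calls: 4 members differed on day 12 without rod day 12 replicate 1 (Osmr and Steap4 added) and 4 on day 35 without rod day 35 replicate 2 (Aldh1l1 and Steap4 added), S100b passed on day 35 without cone day 35 replicate 2, 5 members differed on day 35 without replicate 2 of every group (S100b, Aldh1l1 and Steap4 added), and Gfap passed on day 5 without cone day 5 replicate 3. The median log2 fold change of the members was 0.97 on day 5, 0.63 on day 12, 0.80 on day 21 and -0.05 on day 35, beside 0.01, -0.01, 0.03 and 0.02 over all genes. Of the 6 calls over days 12 to 35, 5 were higher in cone culture, with Cd44 among them on both day 12 and day 35. Among all genes called, 59.2% on day 12, 65.1% on day 21 and 63.3% on day 35 were higher in cone culture.

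**Figure D3:**
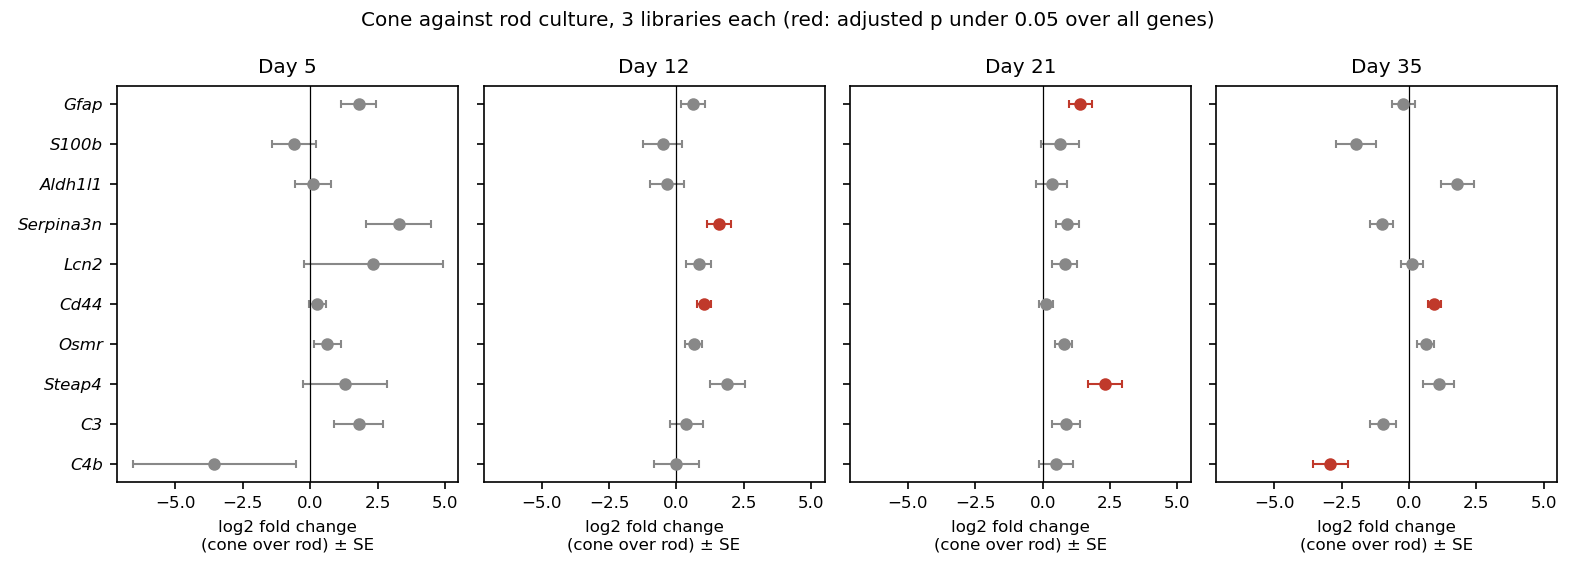
Log2 fold change of cone over rod culture with its standard error for each gene on days 5, 12, 21 and 35, from 3 libraries a group, with genes at an adjusted p under 0.05 in red. Red points are Serpina3n and Cd44 on day 12, Gfap and Steap4 on day 21, and Cd44 (right of 0) and C4b (left of 0) on day 35.

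Other genes of the interleukin-6 family pathway rose with the members. Of the 18 tested genes of this list, 15 were higher in cone and 13 in rod culture on day 35 than in primed cells and 0 were lower, beside 31.1% and 29.4% of all genes called higher and 26.5% and 26.2% called lower. Their median log2 fold change, with genes at the floor set to their bound, was 2.71 in cone and 1.64 in rod culture. As for the members, list genes near 0 counts in primed cells passed the filter only through later days. Counts of list genes higher than primed, here and below, therefore describe the rise and lend it no further support. The ligand Lif, a cytokine that acts through LIFR and IL6ST, went from 0.0539 ± 0.0933 CPM (SD, n = 3) in cone primed cells and from 0.157 ± 0.140 CPM in rod primed cells to 48.1 ± 14.0 and 46.2 ± 2.36 CPM on day 35. Osm itself, the ligand of OSMR, had 8 counts in the cone and 0 counts in the rod libraries of day 35 together, and Il6 had 41 and 14. The shared receptor chain Il6st went from 39.8 ± 3.85 to 295 ± 41.0 CPM in cone and from 49.1 ± 8.71 to 246 ± 15.6 CPM in rod culture, and the transcription factor Stat3 from 34.8 ± 2.29 to 170 ± 16.3 and from 31.1 ± 5.49 to 187 ± 13.5 CPM.

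Between the cultures on day 35, 3 of these 18 genes were higher and 1 lower in cone (median log2 fold change 0.23), while 7.77% of all genes were higher and 4.51% lower. Socs3, a feedback inhibitor of the pathway, stood at 51.6 ± 1.76 CPM (SD, n = 3) in cone culture against 22.1 ± 4.47 CPM in rod culture (log2 fold change 1.23 ± 0.23, SE, adjusted p of 0.000584 in edgeR). Ctf1, a further cytokine of the family, was higher by 1.69 on the log2 scale, while Cntfr, the receptor of ciliary neurotrophic factor, was lower (-0.76 ± 0.15).

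In the NF-kappa-B and acute-phase list all 11 tested genes were higher on day 35 than in primed cells in both cultures, with a median log2 fold change of 3.42 in cone and 2.69 in rod culture. Il1b, Tnf, Saa3 and Hp of this list had too few counts to be tested. Nfkbiz, an NF-kappa-B cofactor needed for Lcn2 induction, went from 3.02 ± 0.576 CPM (SD, n = 3) to 82.0 ± 10.0 in cone and from 3.79 ± 0.736 to 92.5 ± 19.4 in rod culture. The chemokine Ccl2 had 0 counts in the primed libraries of both conditions and 10.7 CPM in cone and 6.14 CPM in rod libraries of day 35. Il1r1, the interleukin-1 receptor, was the 1 gene of this list that differed on day 35, at 53.2 ± 31.2 CPM in cone and 8.46 ± 1.45 CPM in rod culture (log2 fold change 2.66 ± 0.39, SE). That share, 1 of 11 tested, is near the 12.3% of all genes that differed between the cultures. The cytokines Il1b and Tnf stayed at or below 18 counts in any group of 3 libraries of days 0 and 35.

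Genes described for toxin-induced (A1) and ischaemia-induced (A2) reactive astrocytes were followed as 2 lists. Of the 11 tested A1 genes, 9 were higher and 2 lower on day 35 than in primed cells in cone culture and 8 and 1 in rod culture, and of the 11 tested A2 genes 9 were higher and 1 lower in both. The median log2 fold changes were 5.80 and 4.15 for the A1 list and 4.02 and 2.44 for the A2 list in cone and rod culture. The summed level of the A1 list, in which abundant genes weigh most, went from 66.1 to 70.9 CPM in cone primed to 194 to 269 CPM in cone libraries of day 35; in rod culture it was 56.3 to 59.5 CPM in primed libraries, lower on days 5, 12 and 21 (35.0 to 48.4 CPM), and 54.9 to 101 CPM on day 35, which overlaps the primed range. Among them Gbp2, an interferon-induced GTPase, averaged 20.9 CPM in cone against 4.89 CPM in rod libraries, and Emp1, a membrane protein of the A2 list, 97.0 and 27.5 CPM. Fkbp5 of the A1 list, a glucocorticoid-induced chaperone, fell in both cultures, with log2 fold changes of -2.21 ± 0.18 and -2.26 ± 0.18 (SE). Between the cultures on day 35, 6 A1 genes were higher and 0 lower in cone; they include H2-D1, a class I histocompatibility gene (2.41 ± 0.32), and Serping1, the C1 inhibitor (2.48 ± 0.40). Of the A2 genes 3 were higher and 1, Ptx3, was lower (-1.71 ± 0.53).

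The other pan-reactive genes had a similar course. All 7 were higher in cone culture and 5 in rod culture on day 35 than in primed cells, with median log2 fold changes of 4.66 and 3.30. Cp, the copper-carrying ferroxidase ceruloplasmin, went from 58.6 ± 5.35 CPM (SD, n = 3) to 3976 ± 506 in cone and from 222 ± 16.3 to 2793 ± 516 in rod culture. Vim, the intermediate filament vimentin, stood at 2160 ± 299 CPM in cone against 1209 ± 307 CPM in rod culture on day 35, Timp1, a metalloproteinase inhibitor, was 11.9 ± 3.72 and 3.78 ± 2.06, and S1pr3, a sphingosine phosphate receptor, was 318 ± 41.1 and 134 ± 48.6. These 3 and Cxcl10 were the 4 genes of the 7 that were higher in cone than in rod culture, and 0 were lower.

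In the rest of the complement list, 12 of 14 tested genes were higher and 1 lower than primed in cone culture and 6 and 0 in rod culture on day 35, with median log2 fold changes of 4.30 and 0.51. Between the cultures on day 35, 6 of them were higher in cone. C1qa, C1qb, C1qc, C3ar1 and C5ar1, genes of microglia and macrophages, were 5 of the 6, and Cd59a was the other. The direction of these is opposite to that of C4b, and the microglia list described next moved with them; its part in them was not tested.

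Of the 14 tested genes of the astrocyte identity list, 12 were higher and 1 lower on day 35 than in primed cells in both cultures, with median log2 fold changes of 4.26 in cone and 3.11 in rod culture. Pax2, a transcription factor of the optic stalk and retinal astrocyte lineage, went from 0.559 ± 0.517 CPM (SD, n = 3) to 99.5 ± 25.0 in cone and from 7.62 ± 3.49 to 107 ± 12.2 in rod culture. Gja1, the gap junction protein connexin 43, reached 102 ± 33.4 and 89.6 ± 63.1 CPM, and Aqp4, the water channel of astrocyte and Muller endfeet, 10.4 ± 3.76 and 3.28 ± 2.28 CPM. The gap junction gene Gjb6 had 2 counts in cone and 0 in rod libraries of day 35, and the adhesion gene Hepacam 5 and 7, so these markers of mature astrocytes were at or near 0. Slc1a2, a glutamate transporter, fell in both cultures, with log2 fold changes of -1.90 ± 0.47 in cone and -2.12 ± 0.47 in rod culture (SE). Between the cultures on day 35, 2 genes were higher in cone (log2 fold changes of 1.80 ± 0.38 for Fgfr3 and 1.59 ± 0.36 for Slc4a4, SE) and 2 were lower (-0.97 ± 0.24 for Ndrg2 and -0.61 ± 0.12 for Nfia).

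Markers of other cell classes that express some of the 10 genes changed at the same time. The 9 Muller glia markers, with 8 of the 9 detected in cone primed and all 9 in rod primed and day 35 libraries, summed to 441 to 607 CPM in cone primed and 1097 to 1405 CPM in rod primed libraries and to 3080 to 3716 CPM in cone and 3994 to 5756 CPM in rod libraries of day 35. The 8 mesenchyme markers, with all 8 detected in rod and 7 in cone primed libraries, went from 5.66 to 12.7 CPM and from 13.1 to 102 CPM to 604 to 4278 CPM in cone and 326 to 856 CPM in rod culture. The 11 microglia and macrophage markers went from 2.72 to 7.44 CPM and from 8.54 to 16.0 CPM to 97.3 to 316 CPM in cone and 40.7 to 42.5 CPM in rod culture. In rod libraries of day 35 the defining microglia genes Csf1r, Tmem119 and Cx3cr1 had 9, 16 and 16 counts over 3 libraries, against 511, 225 and 249 in cone libraries. Other genes of the list made up most of the rod sum, which was itself higher than in primed libraries. The part of any of these classes in the levels of the members was not tested.

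**Figure D4:**
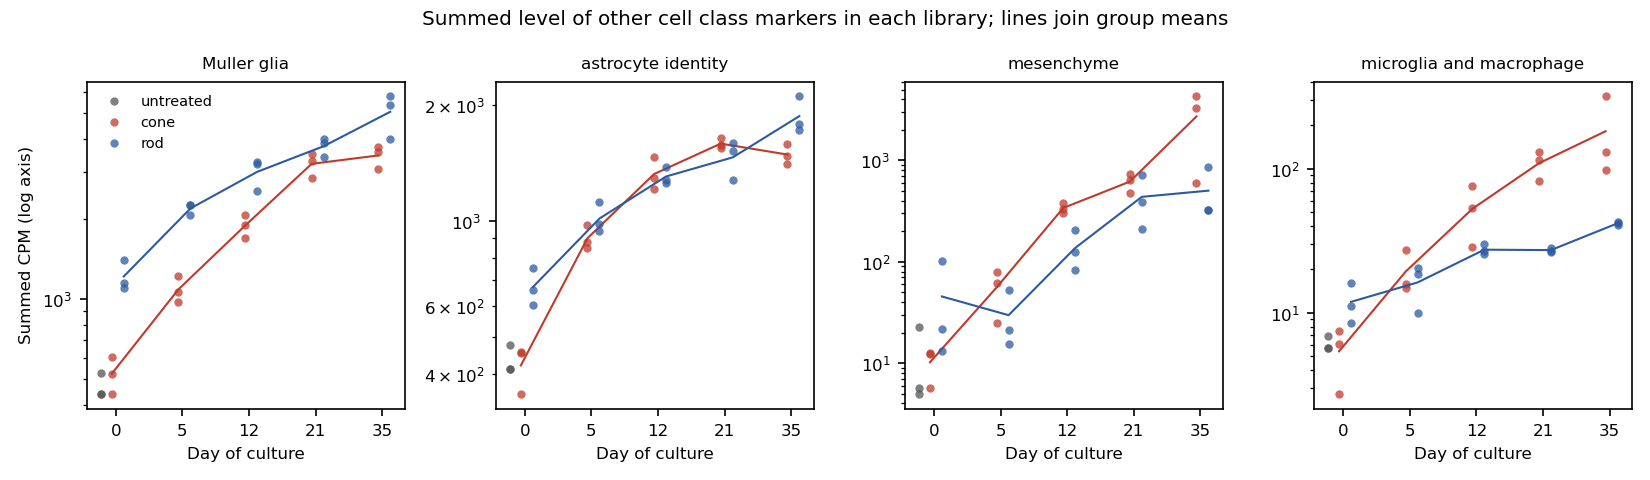
Summed level of the markers of Muller glia, astrocytes, mesenchyme and microglia in every library (CPM, log axis) against day of culture, with untreated cells in grey, cone culture in red, rod culture in blue and lines joining the means of 3 libraries. All 4 sums are higher on day 35 than on day 0; on day 35 the microglia sums of the 3 cone libraries lie above those of the 3 rod libraries, and the mesenchyme sum of 1 cone library lies among those of rod culture.

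Ligands of CD44 were followed as a list of their own. Spp1, which encodes the CD44 ligand osteopontin, went from 0.227 ± 0.111 CPM (SD, n = 3) to 597 ± 359 in cone and from 2.03 ± 1.18 to 216 ± 19.6 in rod culture by day 35. Of the 8 tested ligand and hyaluronan genes, 4 were higher and 1 lower than primed in cone culture, and 3 and 1 in rod culture, with median log2 fold changes of 0.85 and 0.55. Over all genes tested, 31.1% were higher and 26.5% lower in cone culture, and 29.4% and 26.2% in rod culture. Has2, a hyaluronan synthase, was the 1 gene that differed between the cultures on day 35, at 12.2 ± 1.37 CPM in cone and 2.46 ± 0.389 CPM in rod culture (log2 fold change 2.30 ± 0.32, SE). That share, 1 of 8 tested, is near the 12.3% of all genes that differed between the cultures.

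The 10 genes followed each other closely over the 33 libraries, as all rose with day. Pearson correlations of log2 CPM over the 45 pairs ran from 0.625 (S100b with Steap4) to 0.984 (Gfap with Osmr), with a median of 0.899; the libraries share their day and group, so these describe a common time course. Over all genes tested, the gene most like Gfap was Osmr (0.984), followed by Ddah1 (0.984). Il6st was the gene most like both Cd44 (0.989) and Osmr (0.988). For Serpina3n the closest were Ltbp2 (0.982) and Lmod1 (0.976), for Lcn2 Sbno2 (0.973) and Ctsd (0.972), and for Steap4 Ccl2 (0.969) and Fmod (0.966). C3 was closest to Ifngr1 (0.961) and Chil1 (0.960), and C4b to Blnk (0.969) and C1s1 (0.964).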

How the data were processed

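Total RNA of 33 mouse libraries was analysed. Reads had been processed with HISAT2, StringTie and HTSeq on build GRCm38, per the submitters' processing notes; versions, annotation release and strand setting are not given in the sources used here. Raw counts per gene were deposited for 47729 genes, and the 5 lines of unassigned reads below them were left out; reads in genes were 26.9 to 34.9% of each file's total. A second deposited table per library gives, per the file headers, coverage (a read signal), FPKM and TPM, and of these TPM served only as an alternative. TPM ranked genes differently from the counts (Spearman 0.355 to 0.497 per library, median 0.425, over 18150 genes across genes, which are not independent), so levels per length use counts and GENCODE M21 exon lengths.

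The 10 members and all lists (174 of 175 list genes matched 1 identifier) were chosen with earlier results of these data known. Genes passed filterByExpr of edgeR 4.0.16 by group at a minimum count of 10. Libraries were scaled by TMM and fitted in 1 quasi-likelihood model of all 33 libraries (22 residual degrees of freedom; limma 3.58.1, R 4.3.3). Benjamini-Hochberg adjustment was over all 18150 genes, and calls are at an adjusted p under 0.05. Replicates differed by at least 7.80 chi-square per degree of freedom, so no library was a copy of another. Besides the members, up to 2 genes per list and direction with the largest change on day 35 were named, with defining markers by level; other list genes were named after their values were seen, and some list genes are not reported here. On data simulated for cone against rod on day 35 over 17954 genes, the fit recovered 51% of genes changed 2-fold and 83% of genes changed 4-fold. Alternatives were RLE scaling, library totals, other filters, DESeq2 1.42.0, voom weights, the compared libraries alone, TPM in limma with a pseudocount of 1, a replicate block and leaving out libraries. Python 3.11.15 made the figures. Reads have no molecular identifiers, so floors and counting intervals (95%, exact) cover counting error only.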

Additional observations from a re-analysis of the deposited data

Results flagged for a closer look

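Serpina3n was flagged because it passed the F test of whether the cone to rod difference changed over days 0 to 35 (adjusted p of 0.0326 in edgeR). That test was passed by 1 of the 10 members, which is near the share of 9.22% over all genes. Leaving out any one of 7 libraries (cone day 35 replicate 1 or 3, rod day 5 replicate 1 or 2, rod day 12 replicate 3, rod day 35 replicate 1 or 2) ended the call, as did voom with sample weights and the deposited TPM. The cone over rod log2 fold change stood at 1.58 ± 0.45 (SE) on day 12, with 2 of 3 cone libraries above all rod libraries, and -1.01 ± 0.42 on day 35, with 3 of 3 below them. Serpina3n had 0 counts in all primed libraries of day 0, and 42 in cone and 3 in rod libraries of day 5.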

How the results depend on the processing

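Leaving out the deposited TPM, 2281 of 2415 values of single members (all for cone against rod and the change with day, and those called against primed) kept their side of the threshold under the alternatives without a counted change of sign. Of the rest, 99 fell below the threshold, 35 passed it and 0 changed sign. A change of sign was counted only for values called in the main fit or the alternative, and the change with day has no direction. The lowest and highest numbers of members called when libraries were left out were 0 to 1 for cone against rod on day 5, 0 to 4 on day 12, 0 to 1 on day 21 and 0 to 5 on day 35. They were 3 to 5, 8 to 10, 10 to 10 and 9 to 10 for cone days 5, 12, 21 and 35 against primed, 1 to 3, 8 to 10, 10 to 10 and 10 to 10 for rod, and 0 to 2 for the change with day. For cone against rod, DESeq2 called 2 members on day 5 and 1 on day 21, where Gfap was lost. The fit of the compared libraries alone called 2 on day 5, 0 on day 12 and 1 on day 35, where Serpina3n was gained and Cd44 and C4b were lost. Voom with sample weights called 4, 4 and 6 on days 12, 21 and 35, and the fit with no filter called 1 on day 5. For the change with day DESeq2 and no filter each called 2 and voom 0. With TPM the calls were 0, 0 and 1 for cone against rod on days 12, 21 and 35, 0 for the change with day, 0, 0, 1 and 3 for cone days 5, 12, 21 and 35 against primed and 0, 0, 1 and 5 for rod. TPM also reversed 8 called values, S100b in cone day 35 against primed (-0.00063) and Cd44 in cone days 5, 12, 21 and 35 (-0.26, -0.14, -0.31 and -0.24), in rod days 5 and 21 (-0.059 and -0.076) and in cone against rod on day 35 (-0.082). The cause was not tested. In cone day 35 replicate 3, mt-Nd6 had 2301 counts and 10836 TPM, while mt-Co1 had 42246 counts and 85.1 TPM. Library totals without scaling factors moved the median of all genes by up to 0.26. They moved the share of calls that were higher from 59.2 to 40.7% on day 12 and from 63.3 to 74.2% on day 35 for cone against rod, from 65.3 to 52.7% for rod primed against untreated, from 54.4 to 82.8%, 55.1 to 43.4%, 55.9 to 45.2% and 54 to 41.2% for cone days 5, 12, 21 and 35 against primed and from 49.9 to 77.2% and 52.9 to 38.1% for rod days 5 and 35. Same-numbered libraries share only a number in the labels: their deviations had a median correlation of 0.0164, from -0.259 to 0.513 and over 0.1 in 48 of 165 pairs, and 19 of 33 libraries correlated best with their own number, a hint from the data and not from the design. A replicate block gave the counts of the fit without it, 0, 2, 2 and 2 for cone against rod on days 5, 12, 21 and 35, 5 and 10 for cone days 5 and 35 and 4 and 10 for rod days 5 and 35 against primed and 1 for the change with day; in rod day 5 S100b lost its call with the block and Gfap gained one.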
